A study of Mus musculus with 75 samples.

Results

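Nuclear factor I (NFI) proteins are DNA-binding transcription factors, and 3 of their genes, Nfia, Nfib and Nfix, were followed here in nuclei of the mouse hypothalamus that express the long form of the leptin receptor (LepRb) and in the nuclei left after those were sorted out. The genes were represented by deposited regions of H3K27ac and of open chromatin that overlapped fixed mm9 windows, chr4:97400000-97800000 for Nfia, chr4:81900000-82200000 for Nfib and chr8:87200000-87350000 for Nfix. The windows held 110 of the 175002 regions in both tables. Of 126368 H3K27ac regions, 37 lay in the Nfia window, 23 in the Nfib window and 21 in the Nfix window, and of 48634 ATAC regions 9, 4 and 16 did. The genes were chosen by the H3K27ac and ATAC signal of the sorted fractions, which was known to differ at them, so that the difference between the fractions in both assays is described below and not tested. Counts of regions past a threshold of the fit over all regions describe size against spread there, since the choice of the genes had in part fixed them.

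NFI proteins bind DNA as dimers at palindromic sites and can activate or repress transcription. In the developing central nervous system Nfia and Nfib promote the generation of glia, in particular of astrocytes, and Nfix takes part in the control of neural stem cells. All 3 remain active in glia and in some neurons of the adult brain. H3K27ac is an acetylation of histone H3 found at active promoters and enhancers, and ATAC-seq marks DNA that is open to a transposase.

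All mice carried LepRcre/+; SUN1-sfGFP/+, in which Cre recombinase from the Lepr locus switches on a green fluorescent protein of the nuclear envelope, so that the GFP label depends on Lepr expression at some time in the life of the cell and marks a mixture of LepRb cell types. Hypothalami were pooled and their nuclei sorted as GFP-positive (LepRb) or GFP-negative (all others). Each fraction came from 4 treatments over 36 h, namely mice fed ad libitum and labelled as given saline (Fed), mice fasted for 36 h with saline at 12, 24 and 34 h (Fast), fasted mice given leptin at 5 mg/kg at 34 h only (Lep2), and fasted mice given leptin at 5 mg/kg at 12, 24 and 34 h (Lep24). Each of the 8 groups had 2 libraries per assay, which gave 16 H3K27ac and 16 ATAC libraries. The labels do not say whether the 2 libraries came from separate pools of mice, so the spread between them may be technical. The injection times of Fed mice and any injection of Lep2 mice before leptin are not in the protocol text, while the sample titles give Fed and Fast the same code, SSS, and Lep2 the code SSL. The mice were grown for at least 2 months.

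Signal is the authors' normalized value per region, with the read depth behind it unknown. Summed over all regions it ranged from 9247619 to 10963342 per H3K27ac library and from 1232939 to 1415507 per ATAC library. A set of 6 H3K27ac libraries stood apart, namely those numbered 1 from Fed, Lep2 and Lep24 nuclei of either fraction, with 0.0750% to 0.238% of their signal on the mitochondrial chromosome against 0.0102% to 0.0384% in the other 10. The Fast groups have no library in that set, so every H3K27ac contrast with Fast is in part a contrast with it. Without a gene annotation of mm9, regions are described by position and not by exon, intron or start site. For the same reason the fractions could not be checked against Lepr or against markers of neurons and glia, and the related gene Nfic is not analysed here.

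Promoter sequences are shown for motifs that bear on NFI factors and on leptin. The RefSeq promoters of GRCm38.p6, of 300 bases each, include 1 entry for Nfia and 4 for Nfix. They were searched on both strands for the single NFI site TTGGC, for the NFI palindrome (TTGGC, any 5 bases, GCCAA) and for TTCNNNGAA, the motif of STAT factors, which act downstream of the leptin receptor. Positions in GRCm38 cannot be set beside the mm9 regions. Shown are the Nfia promoter (chr4:97581693-97581992, plus strand) and the 2 Nfix promoters that held the STAT motif (chr8:84775779-84776078, minus strand) or a single NFI site on each strand (chr8:84772826-84773125, minus strand), 5′ to 3′, with every match in capitals.

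Nfia promoter: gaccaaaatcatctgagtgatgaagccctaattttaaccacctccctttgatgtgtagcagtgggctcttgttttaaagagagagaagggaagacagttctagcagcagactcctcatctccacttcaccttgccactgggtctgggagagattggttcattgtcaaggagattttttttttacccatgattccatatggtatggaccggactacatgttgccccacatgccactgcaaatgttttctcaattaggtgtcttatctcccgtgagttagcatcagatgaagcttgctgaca

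Nfix promoter with a STAT motif: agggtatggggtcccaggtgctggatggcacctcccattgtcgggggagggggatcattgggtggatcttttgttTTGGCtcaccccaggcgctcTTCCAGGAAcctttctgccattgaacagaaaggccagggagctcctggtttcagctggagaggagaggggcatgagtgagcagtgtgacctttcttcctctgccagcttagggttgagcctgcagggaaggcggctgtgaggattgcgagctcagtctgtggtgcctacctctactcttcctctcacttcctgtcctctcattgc

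Nfix promoter with NFI sites on both strands: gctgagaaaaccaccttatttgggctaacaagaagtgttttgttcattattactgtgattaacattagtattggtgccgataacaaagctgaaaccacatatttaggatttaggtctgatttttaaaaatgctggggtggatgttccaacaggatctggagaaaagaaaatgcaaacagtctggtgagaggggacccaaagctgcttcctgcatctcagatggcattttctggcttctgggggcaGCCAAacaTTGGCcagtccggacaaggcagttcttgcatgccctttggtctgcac

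The Nfia promoter held none of these motifs in its 300 bases. Among the 4 Nfix promoters, 1 held the STAT motif, 3 held at least 1 single NFI site and none held the palindrome. Of all 32851 RefSeq promoters, 8.30% held the STAT motif, 46.7% a single NFI site and 0.0365% the palindrome.

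H3K27ac at all 3 genes was lower in GFP-positive than in GFP-negative nuclei in every library. Summed over the Nfia window, the signal had a lowest, median and highest value of 1375, 1539 and 2515 in the 8 GFP-positive libraries, and the 8 GFP-negative ones had 3172, 3709 and 4309.9. The means were 1671 ± 375 and 3709 ± 476 (SD, n = 8 each), a 2.22-fold lower signal in GFP-positive nuclei. The ranges did not overlap, and the highest GFP-positive library was Lep2 replicate 1.

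At Nfib the lowest, median and highest sums were 821, 867 and 1366 in the GFP-positive and 1521, 2011 and 2231 in the GFP-negative libraries. The means were 947 ± 185 and 1935 ± 295 (SD, n = 8 each), 2.04-fold lower in GFP-positive nuclei. Here too all GFP-positive libraries lay below all GFP-negative libraries.

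At Nfix the sums were 1594, 1706 and 2814.5 in the GFP-positive and 3501, 3804 and 4354 in the GFP-negative libraries. The means were 1955 ± 442 and 3885 ± 343 (SD, n = 8 each), 1.99-fold lower in GFP-positive nuclei. Per kilobase of region, GFP-negative nuclei had an H3K27ac level of 29.6 ± 2.61 at Nfix, 22.3 ± 3.40 at Nfib and 19.9 ± 2.55 at Nfia (SD, n = 8). Nfix was the highest by more than these spreads, while the levels of Nfib and Nfia differed by less. In bulk nuclei, fewer cells that carry the mark and less mark per cell cannot be told apart.

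**Figure D1:**
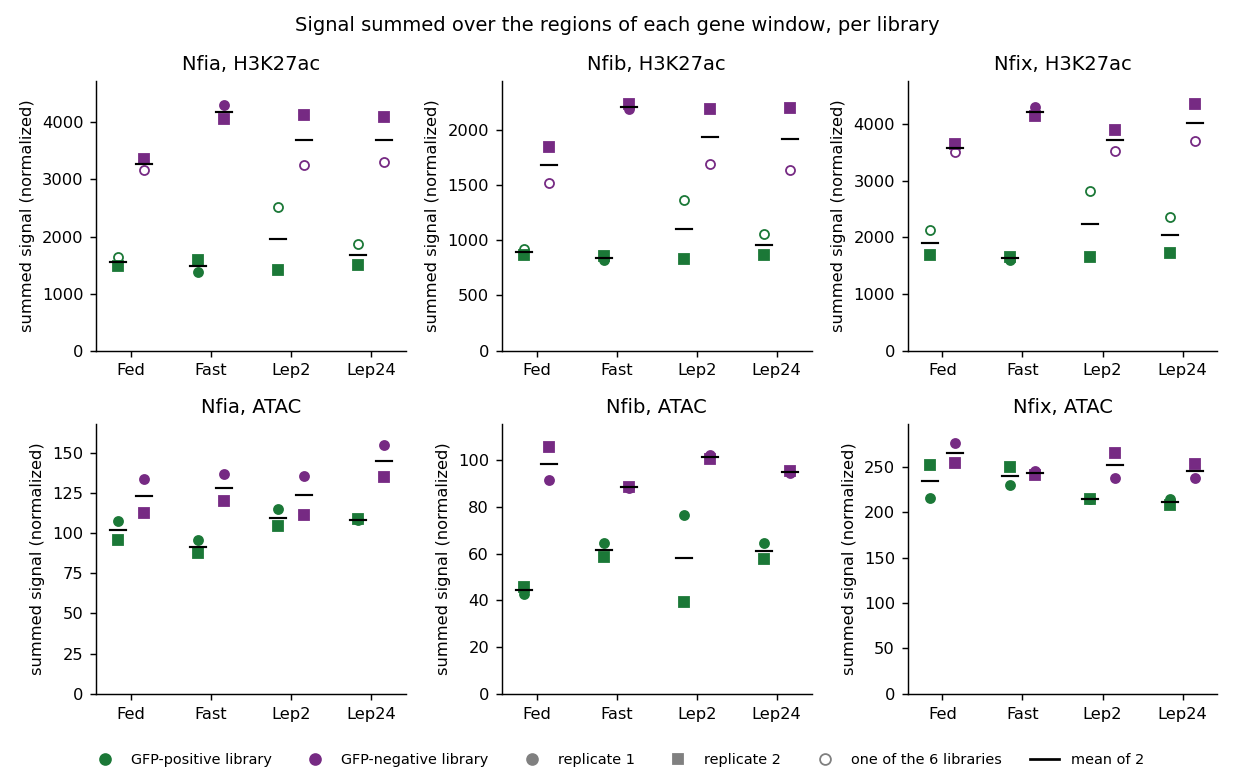
Signal summed over the regions of each gene window (vertical axes, authors' normalized signal) in each library, by treatment (horizontal axes) and sorted fraction (color), for H3K27ac (top) and ATAC (bottom); circles are replicate 1, squares replicate 2, black lines the mean of 2 libraries, open circles the 6 H3K27ac libraries that stand apart. GFP-positive H3K27ac sums lie below GFP-negative sums at all 3 genes, with Lep2 replicate 1 the highest GFP-positive library (2515 at Nfia).

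Most single regions shared this direction, but not evenly along the windows. Of the 81 H3K27ac regions 76 passed the filter on low signal, and 70 of them had a lower mean log2(signal + 1), the scale of all fitted log2 differences below, in GFP-positive nuclei. In the limma fit over 113725 regions, 51 passed an adjusted p under 0.05, all lower (25 at Nfia, 15 at Nfib, 11 at Nfix). Among all tested regions 5.97% of regions were lower and 3.26% higher by that rule, and since the genes were chosen for this difference nothing is read from the counts. With only the 6 libraries that stood apart the count was 25. The median log2 difference was -1.14 at Nfia, -0.86 at Nfib and -0.78 at Nfix, beside 0.03 over all tested regions. In 22 regions (12, 4 and 6) every GFP-positive library was below every GFP-negative library, which held for 1.65% of all tested regions.

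The largest stretch of H3K27ac at Nfia was chr4:97479774-97519385, a single region of 39612 bases with no deposited ATAC region in it. Its lowest, median and highest signal was 111, 175 and 592 in the GFP-positive and 453, 653 and 854 in the GFP-negative libraries. The fractions overlapped through the GFP-positive Lep2 replicate 1 library (592.2) alone, and the means were 248 ± 162 and 663 ± 136 (SD, n = 8), 2.67-fold lower in GFP-positive nuclei.

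The region with the largest difference at any of the 3 genes lay at lower coordinates, at chr4:97447554-97465777 (18224 bases). It had 56.6, 82.7 and 268.7 in GFP-positive against 342, 397 and 433 in GFP-negative libraries, with no overlap, and was 3.61-fold lower. Its fitted log2 difference was -2.03 ± 0.26 (SE). The shorter, denser region next to it, chr4:97441865-97447553 (5689 bases), had 105, 142 and 170 against 183, 403.5 and 532, again with no overlap, and was 2.54-fold lower. Both neighbours belong to a run of 5 touching regions that spans 30.3 kb.

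Not all of the Nfia window followed. The region chr4:97759737-97762482 had 41.6, 55.1 and 69.0 in the GFP-positive and 28.5, 46.1 and 63.9 in the GFP-negative libraries, which overlap, and was the Nfia region with the largest positive log2 difference, 0.26 ± 0.16 (SE). The region touching it, chr4:97755233-97759736, had a log2 difference of -1.18, so position in the window did not set the 2 apart. The window's 400001 bases are fewer than the 540811 bases of the RefSeq gene in GRCm38, so the window cannot hold the whole gene.

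At Nfib the highest signal lay in chr4:82148236-82154994 (6759 bases). It had 141, 183 and 203 in the GFP-positive and 211, 479 and 590 in the GFP-negative libraries, which did not overlap, with means of 180 ± 19.4 and 421 ± 154 (SD, n = 8), 2.34-fold lower. The GFP-positive values were close together and the GFP-negative values fell into a low and a high part, the low part being the 3 libraries of the set of 6 (211 to 277, against 430 to 590 in the other 5).

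The touching region chr4:82134063-82148235 (14173 bases) was 2.28-fold lower, with 107, 121 and 205 against 240.5, 323 and 354 and no overlap. The last region of the window, chr4:82174942-82189417 (14476 bases), was 2.37-fold lower, with 58.5, 91.8 and 313 against 237, 299 and 333. It overlapped only through GFP-positive Lep2 replicate 1 (313.1). The largest negative log2 difference at Nfib, -1.55 ± 0.30 (SE), came from a low region of 853 bases, chr4:82154995-82155847, with 2.80, 5.85 and 12.6 against 9.30, 19.5 and 34.8. The first region of the window, chr4:81948265-81948945, was the only one at Nfib with a positive log2 difference, 0.07 ± 0.27 (SE). It had 3.60, 7.80 and 12.6 against 4.40, 7.25 and 14.2. In the same touching run, chr4:81950794-81953166 had a log2 difference of -0.51.

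At Nfix the low signal in GFP-positive nuclei was one continuous block. A run of 11 touching regions, chr8:87222444-87326289 (103.8 kb), had a mean sum of 1314 in the GFP-positive and 3206 in the GFP-negative libraries, 2.44-fold lower. Its main region, chr8:87235240-87277765 (42526 bases), had 315, 425 and 1055.5 against 973, 1249 and 1505.5. Only GFP-positive Lep2 replicate 1 reached the GFP-negative range, and the means were 559 ± 288 and 1261 ± 193 (SD, n = 8), 2.26-fold lower.

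Further along the block, chr8:87288327-87300078 (11752 bases) was 2.67-fold lower, with 163, 179 and 271 against 312, 566 and 698. The largest difference at Nfix followed at chr8:87300079-87308013 (7935 bases), with 52.9, 55.5 and 113 against 183, 233 and 314, 3.53-fold lower and with a log2 difference of -1.84 ± 0.18 (SE). Neither of these regions overlapped between the fractions.

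Outside the block the difference was smaller or absent from the means, except at chr8:87332182-87334682, with a log2 difference of -0.83. The region chr8:87202868-87214681 (11814 bases), the second highest of the window, had 341, 429 and 526 in the GFP-positive and 280, 470 and 564 in the GFP-negative libraries, with means of 428 ± 70.0 and 428 ± 101 (SD, n = 8). At the other end chr8:87346749-87348074 had 20.2, 31.7 and 41.3 against 9.90, 28.3 and 42.6, a log2 difference of 0.35 ± 0.26 (SE). The Nfix window of 150001 bases is wider than the RefSeq gene (96527 bases in GRCm38), and the neighbouring protein-coding genes there are Lyl1 and Dand5. Regions at the ends of the window may therefore lie outside Nfix, which was not tested.

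**Figure D2:**
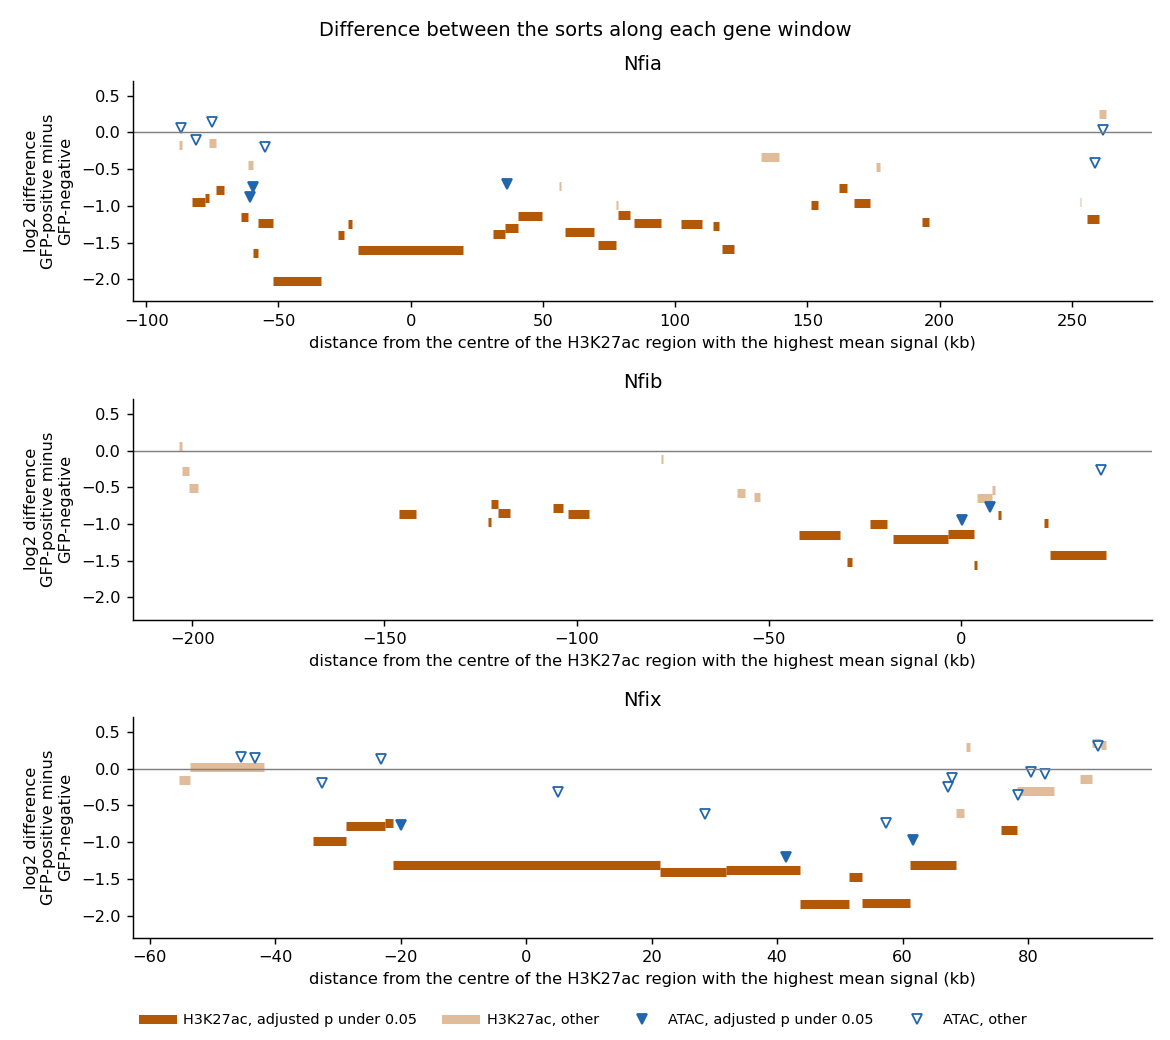
Fitted log2 difference between GFP-positive and GFP-negative nuclei (vertical axes) along the 3 gene windows, by distance in kb from the centre of the H3K27ac region with the highest mean signal (horizontal axes); bars span H3K27ac regions, triangles mark the centres of ATAC regions, and dark bars or filled triangles are those with an adjusted p under 0.05 (limma, over all regions), a description here because the genes were chosen on this difference. Bars lie at -0.74 or lower throughout the central block of Nfix except its last, short region (-0.60), and between -0.31 and 0.35 at the ends of that window, apart from a region at -0.83.

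Longer H3K27ac regions had the lower log2 values. Across the 76 tested regions the rank correlation between length and log2 difference was -0.49, beside -0.04 over all 113725 tested regions, where regions are not independent of each other. The 11 regions of 10 kb or more had a median log2 difference of -1.36, while the 9296 such regions of the whole table had one of -0.02. The choice of the genes had in part fixed both contrasts with the whole table. Length also went with signal. Members with an adjusted p under 0.05 had a median length of 4504 bases and a median signal of 52.2, the other tested members 1658 bases and 25.1. Whether length or signal goes with the difference was not tested.

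The ATAC sums differed between the fractions by smaller folds than the H3K27ac sums. The ATAC regions cover 23.4 kb and the H3K27ac regions 404.6 kb, and folds of the 2 assays may not share a scale. The ATAC sum at Nfia was 87.5, 106 and 114.7 in the GFP-positive and 111.5, 134 and 155 in the GFP-negative libraries, 1.26-fold lower in the means (103 ± 9.02 and 129.8 ± 14.6, SD, n = 8). These ranges overlapped. At Nfib it was 39.5, 58.1 and 76.5 against 88.2, 94.9 and 105.5, 1.70-fold lower (56.2 ± 12.7 and 95.8 ± 6.39), with no overlap. At Nfix it was 207, 215 and 252 against 237, 249 and 276.5, 1.12-fold lower (225 ± 17.3 and 251 ± 14.1), with overlap. Per kilobase of region the ATAC level in GFP-negative nuclei was highest at Nfib (28.2 ± 1.88), followed by Nfia (20.3 ± 2.28) and Nfix (18.4 ± 1.03), the last 2 differing by less than the spread of Nfia. In GFP-positive nuclei the 3 genes lay at 16.1 ± 1.41, 16.5 ± 3.73 and 16.4 ± 1.27 (Nfia, Nfib, Nfix), within their spread.

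Of the 29 ATAC regions 28 passed the filter, and 8 passed an adjusted p under 0.05, all lower in GFP-positive nuclei (limma over 43767 regions; 3 at Nfia, 2 at Nfib, 3 at Nfix). The background was 5.13% lower and 4.66% higher, and nothing is read from the counts here either. In 2 of them, both at Nfix, the fractions did not overlap, which held for 0.923% of all tested regions. Left-out libraries moved this count to between 4 and 9, and it was 4 without Fed GFP-negative replicate 2 or without Lep24 GFP-negative replicate 2. It was 5 without Fed GFP-positive replicate 2, Fast GFP-negative replicate 2 or either Lep2 GFP-negative replicate.

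The ATAC regions lower in GFP-positive nuclei included the highest ones of Nfia and Nfib. At Nfia chr4:97438591-97439355 had 6.90, 18.6 and 22.3 in the GFP-positive and 17.7, 27.5 and 37.2 in the GFP-negative libraries, with a log2 difference of -0.88, and was lower in 8 of 8 pairs matched by treatment and replicate number. At Nfib chr4:82158731-82159658 had 18.1, 28.9 and 39.3 against 36.7, 48.2 and 60.1, 1.70-fold lower, and chr4:82151080-82152788 had 8.10, 17.6 and 26.6 against 25.5, 29.7 and 43.1, 1.87-fold lower. Both overlapped between the fractions by a small margin.

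At Nfix the largest negative difference was at chr8:87297780-87298189, inside the H3K27ac block, with 0, 5.20 and 6.50 against 6.80, 9.30 and 13.1. The values did not overlap, but they are low and 1 GFP-positive library is listed at 0. The 3 Nfix ATAC regions with the highest signal had log2 differences of 0.15, -0.08 and 0.15. The highest, chr8:87209930-87212029, had 25.1, 40.9 and 43.6 in the GFP-positive and 29.3, 32.6 and 41.5 in the GFP-negative libraries, and it lies in the flanking H3K27ac region whose means were equal. The next, chr8:87337926-87340456, had means of 34.7 and 35.5, and chr8:87212652-87213846 had means of 23.6 and 21.3.

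All 29 ATAC regions overlapped an H3K27ac region of the same window by at least 1 base, while 24 of the 81 H3K27ac regions held an ATAC region. Of 31 overlapping pairs in which both could be tested, 24 had a negative log2 difference in both assays. In 25 the H3K27ac difference was the more negative. Some regions enter more than 1 pair, and the genes were chosen on both assays, so shared signs were in part fixed. No share over all overlapping regions of the genome was taken, and nothing is read from these counts.

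The size of the H3K27ac difference was not the same in both sets of libraries. In the 3 pairs of replicate 1 libraries from the set of 6, GFP-positive sums were 51.6% to 77.4% of the GFP-negative sums at Nfia, 60.2% to 80.8% at Nfib and 60.8% to 79.7% at Nfix. For the other 5 pairs they were 31.9% to 43.9%, 37.6% to 47.2% and 37.0% to 46.1%. GFP-positive signal was thus lower in all 8 pairs at each gene, and the ranges of the 2 sets of pairs did not overlap. Among GFP-negative libraries, those of the set had more signal than the other 5 in the Nfia region of 39612 bases (751 to 854 against 453 to 654) and less in the Nfia region of 5689 bases (183 to 209 against 386 to 532). At Nfix they had more in the region of 42526 bases (1429 to 1505.5 against 973 to 1305) and less in that of 11752 bases (312 to 402 against 542 to 698).

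**Figure D3:**
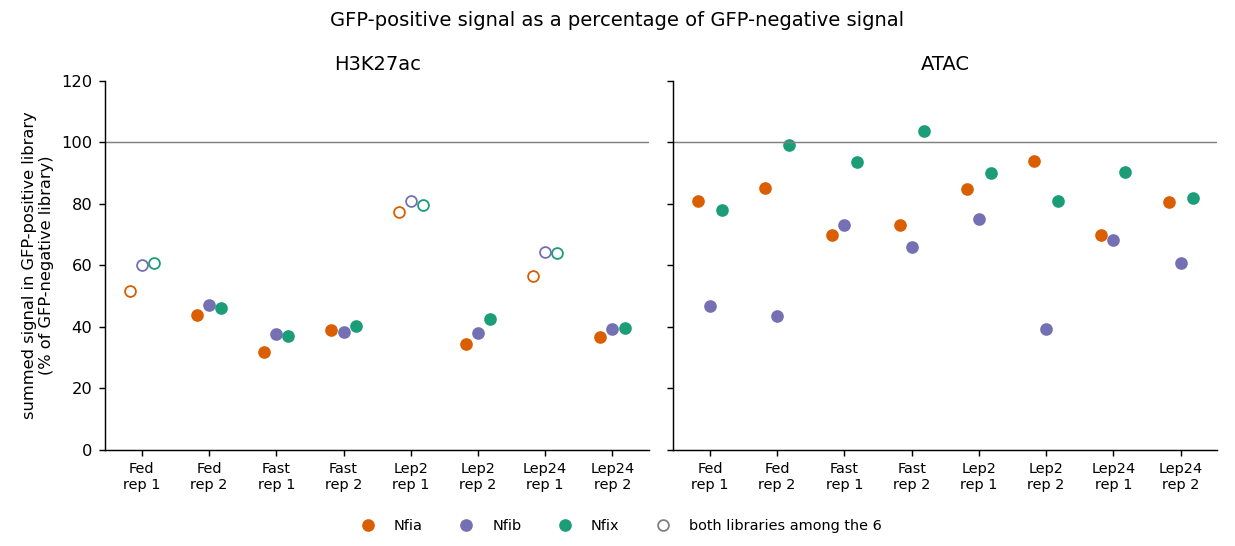
Summed signal of each GFP-positive library as a percentage of the GFP-negative library with the same treatment and replicate number (vertical axis), for the 8 pairs (horizontal axis) and 3 genes (color), H3K27ac on the left and ATAC on the right; open symbols are pairs from the set of 6 H3K27ac libraries and the grey line is 100%. The open H3K27ac symbols lie between 51.6% and 80.8% and the filled ones between 31.9% and 47.2%.

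**Figure D4:**
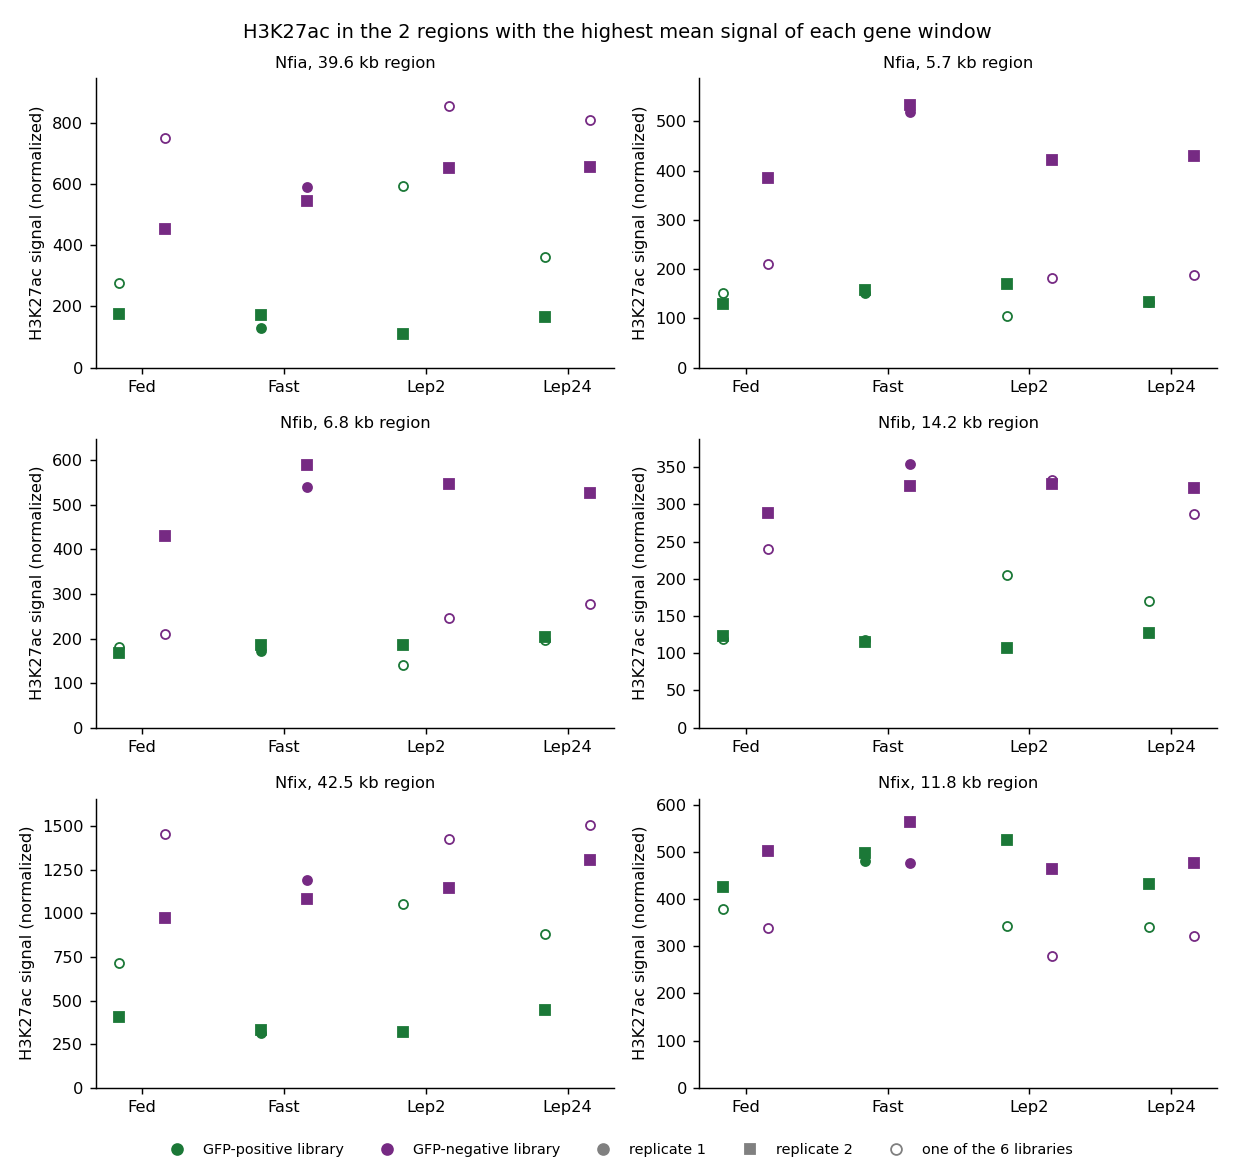
H3K27ac signal (vertical axes, authors' normalized signal) in each library for the 2 regions with the highest mean signal of each gene window, by treatment (horizontal axes) and sorted fraction (color); open circles are libraries of the set of 6. In the long Nfia and Nfix regions (left) open circles lie above the other libraries of their fraction, and in the 5.7 kb Nfia and 6.8 kb Nfib regions the GFP-negative open circles lie below them.

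The genes were not chosen by the contrasts of feeding state and leptin, and no region of the 3 genes passed the test for either. In the limma fit 0 of 76 H3K27ac and 0 of 28 ATAC regions had an adjusted p under 0.05 for Fast against Fed, Lep2 against Fast or Lep24 against Fast, in either fraction, in their mean or in the difference between the fractions. Over all tested regions 0% passed in each of these comparisons. The median SE of a log2 difference between treatments within a fraction was 0.43 for H3K27ac and 0.44 for ATAC regions. The differences named below, each larger in size than that median and given with its own SE, did not pass either.

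At an unadjusted p under 0.05, the H3K27ac counts were 1 of 76 for GFP-positive and 4 of 76 for GFP-negative nuclei for Fast against Fed (background 1.91% and 5.98%). For Lep2 against Fast they were 6 and 2 (3.27% and 4.63%), and for Lep24 against Fast 0 and 1 (2.65% and 6.05%). In ATAC they were 3 and 0 of 28 for Fast against Fed (6.56% and 1.97%), 2 and 0 for Lep2 (7.85% and 1.5%) and 3 and 0 for Lep24 (6.7% and 1.49%). Averaged over the fractions, the H3K27ac counts were 0, 1 and 0 for Fast against Fed, Lep2 and Lep24 against Fast (5.84%, 6.42% and 7.53%), and for the difference between the fractions 3, 3 and 0 (2.36%, 2.36% and 2.17%). The ATAC counts were 0, 2 and 1 for the average (3.98%, 4.26% and 4.33%) and 2, 1 and 1 for the difference (3.95%, 3.98% and 2.97%).

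The summed H3K27ac signal in GFP-negative nuclei was higher in Fast than in Fed at all 3 genes, by description. At Nfia both Fed libraries were at 3172 and 3366 and both Fast libraries at 4053 and 4309.9. At Nfib the Fed sums were 1521 and 1838 and the Fast sums 2185 and 2231, and at Nfix they were 3501 and 3648 against 4139 and 4303. In GFP-positive nuclei the values were 1478 and 1636 in Fed against 1375 and 1584 in Fast at Nfia, 868 and 916 against 821 and 856 at Nfib, and 1682 and 2128 against 1594 and 1663 at Nfix. Fed replicate 1 of each fraction belongs to the set of 6. Fed replicate 2, outside the set, lay below both Fast libraries in GFP-negative nuclei at each gene, at 3366, 1838 and 3648. This is a single library, the sums of the 3 genes are not independent of each other, and the part of the set was not tested.

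In both leptin groups replicate 1 stood apart from replicate 2. GFP-positive sums in Lep2 were 2515 and 1415 at Nfia, 1366 and 830.5 at Nfib and 2814.5 and 1659.5 at Nfix, the higher value being replicate 1 each time. In Lep24 they were 1870.3 and 1493, 1052 and 865, and 2368 and 1729.8. GFP-negative sums in Lep2 were 3249.7 and 4136 at Nfia, 1691 and 2183 at Nfib and 3530.4 and 3904 at Nfix, and those in Lep24 were 3301 and 4088, 1637 and 2197, and 3704 and 4354. Replicate 2, outside the set of 6, lay nearer to the Fast libraries than replicate 1 did, and replicate 1 lay nearer to the other fraction. Some groups were still apart from Fast. In GFP-negative nuclei both Lep2 libraries lay below both Fast libraries at Nfib, by a small margin for replicate 2, and at Nfix. In GFP-positive nuclei both Lep24 libraries lay above both Fast libraries at Nfib and Nfix. The part of the set in these values was not tested.

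The ATAC sums by treatment are a description without a test. At Nfia GFP-positive sums were 95.6 and 107.7 in Fed, 87.5 and 95.6 in Fast, 104.6 and 114.7 in Lep2 and 108.1 and 108.7 in Lep24, so that both leptin groups lay above Fast. At Nfib they were 42.8 and 45.8 in Fed, 58.4 and 64.5 in Fast, 39.5 and 76.5 in Lep2 and 57.8 and 64.4 in Lep24. At Nfix they were 215.8 and 252 in Fed, 229.5 and 249.7 in Fast, 214 and 214.7 in Lep2 and 207.4 and 214.4 in Lep24, both leptin groups lying below Fast. The comparisons of Fed, Lep2 and Lep24 with Fast share the Fast libraries.

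GFP-negative ATAC sums at Nfib were 91.5 and 105.5 in Fed, 88.2 and 88.6 in Fast, 100.5 and 102.1 in Lep2 and 94.4 and 95.3 in Lep24. At Nfia they were 112.2 and 133.3, 119.8 and 136.7, 111.5 and 135.4, and 134.7 and 154.8 in the same order. At Nfix they were 254 and 276.5, 240.9 and 245, 237.4 and 265.4, and 237.2 and 253.4. Fast was the lowest group at Nfib, without overlap, while at Nfia it overlapped with each other treatment.

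The region with the smallest p between treatments was named for each gene and assay. For H3K27ac these were chr4:97421974-97423428 at Nfia, Fast against Fed in GFP-negative nuclei (10.8 and 14.5 in Fed, 31.8 and 32.2 in Fast; log2 difference 1.29 ± 0.40 SE, limma adjusted p = 0.716). At Nfix chr8:87326549-87327173 in the same contrast had 2.70 and 0 in Fed and 7.40 and 3.30 in Fast (1.64 ± 0.60, limma adjusted p = 0.716). At Nfib chr4:81950794-81953166 in GFP-positive nuclei had 7.70 and 15.5 in Fast and 30.0 and 20.5 in Lep2 (1.11 ± 0.43, limma adjusted p = 0.923). Each pair of groups was apart in value, in signal far below that of the long regions.

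For ATAC, chr4:82158731-82159658, the highest Nfib region, had 26.4 and 18.1 in GFP-positive Fed and 36.0 and 39.3 in Fast (log2 difference 0.76 ± 0.27 SE, limma adjusted p = 0.653). At Nfia chr4:97758081-97758649 had 10.5 and 15.3 in Fed and 6.50 and 0 in Fast (-2.32 ± 0.63, limma adjusted p = 0.567). At Nfix chr8:87323549-87323969 had 9.80 and 19.7 in Fast and 7.80 and 0 in Lep2 (-2.33 ± 0.69, limma adjusted p = 0.441). The last 2 rest on a library listed at 0. Leaving out Fast GFP-positive replicate 1, so that Fast replicate 2 stood alone, brought the Nfia value to -3.78 with an adjusted p of 1.8e-04, and leaving out Lep2 GFP-positive replicate 1 brought the Nfix value to -3.90 with an adjusted p of 0.0029.

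**Figure D5:**
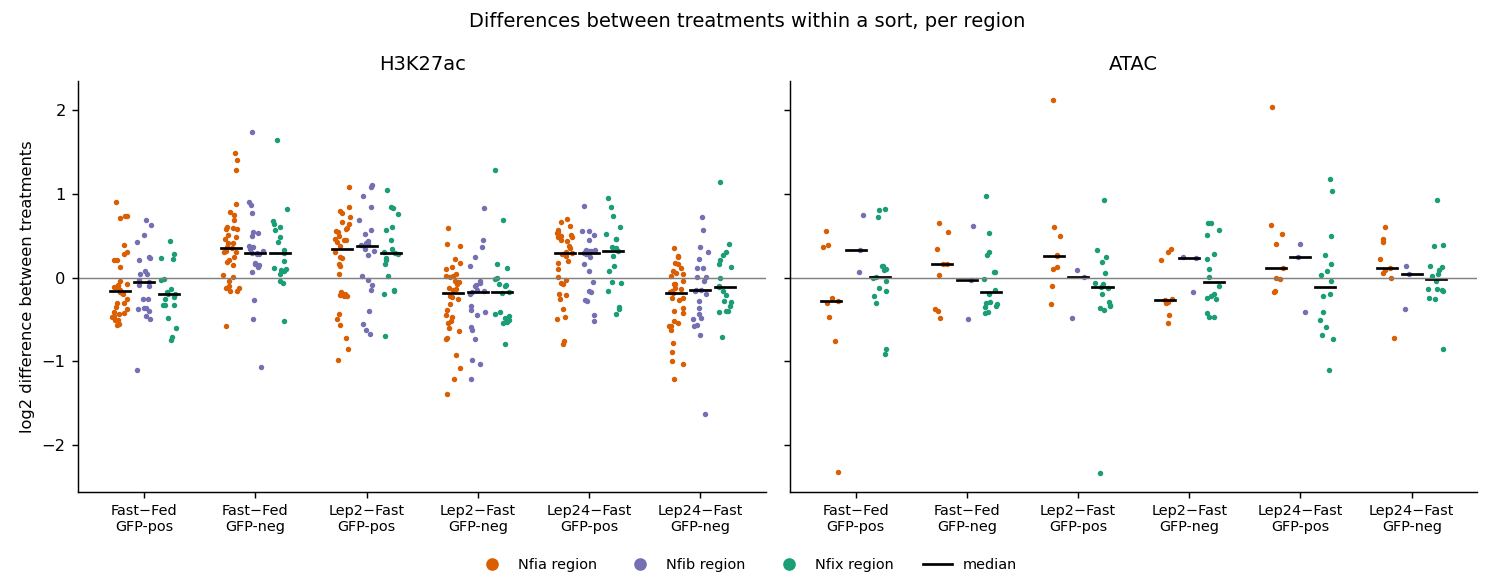
Fitted log2 difference between treatments (vertical axis) for each tested region of the 3 genes (points, color by gene) in 6 contrasts within a fraction (horizontal axis), H3K27ac on the left and ATAC on the right; black lines are medians over the regions of a gene. No point passed an adjusted p of 0.05 over all regions, and the H3K27ac medians for Lep2 and Lep24 against Fast lie above 0 in GFP-positive nuclei and below 0 in GFP-negative nuclei.

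Over the members, the median log2 difference of H3K27ac for Fast against Fed was -0.15 for the GFP-positive and 0.32 for the GFP-negative fraction, for Lep2 against Fast 0.33 and -0.17, and for Lep24 against Fast 0.30 and -0.16. The medians over all tested regions lay between -0.01 and 0.02 in these contrasts. The set of 6 falls on 1 side of each of these contrasts. With only the other 10 libraries, where Fed, Lep2 and Lep24 have 1 library per fraction, the medians in the same order were -0.04 and 0.23, -0.01 and -0.04, and 0.04 and -0.03. With the set as a term in the fit they were -0.14 and 0.36, 0.23 and -0.22, and 0.22 and -0.19. No member passed the adjusted threshold in either fit, while with only the other 10 libraries 0 to 854 of all 113725 tested regions did, the highest count being for Lep24 against Fast in GFP-negative nuclei.

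The H3K27ac sums of the 3 genes ran in parallel across libraries. The log2 sums correlated with Pearson's r of 0.99 for Nfia with Nfib and for Nfia with Nfix and 0.98 for Nfib with Nfix over 16 libraries. Within the 8 GFP-positive libraries r was 0.95 to 0.99 and within the 8 GFP-negative libraries 0.89 to 0.96. These points share the sorted fraction and the set of 6, and no test is attached. For ATAC r was 0.67, 0.22 and 0.56 in the same order over 16 libraries, but 0.15, -0.89 and -0.11 within the GFP-positive libraries and -0.40, -0.41 and 0.07 within the GFP-negative libraries.

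Other regions of the genome had much the same pattern over the 16 H3K27ac libraries. The region closest to the long Nfia region by Pearson's r of quantile-normalized log2 signal was chr2:127449314-127463056 (r = 0.995, mean signal 84.2 in the GFP-positive and 238 in the GFP-negative libraries). For the highest Nfib region it was chr17:84584496-84590014 (r = 0.985, 145 and 319), and for the highest Nfix region chr2:25017536-25039590 (r = 0.993, 331 and 662). Each of these is also lower in GFP-positive nuclei, which follows from choosing them by likeness to a region that is lower there.

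In the authors' deposited table, a comparison of GFP-positive with GFP-negative nuclei gave an FDR for 64 of the 81 H3K27ac regions, and 48 were below 0.05, all lower. Of all regions with an FDR 15.4% were below it, in either direction, as for the shares that follow. The label of this comparison names no treatment, so which libraries it covers is unknown. The genes were chosen on this difference, and nothing is read from the counts. In the authors' deposited table the comparisons of the fractions within one named treatment had 40 of 63 regions below 0.05 in Fast (10.1% of all), 20 of 45 in Lep24 (4.29%) and 12 of 36 in Lep2 (3.66%). For ATAC the authors' deposited table had 0 of 20 regions below 0.05 between the fractions (0.408% of all). Within one treatment it had 0 of 29 in Fast (0% of all), 0 of 29 in Lep24 (0%) and 0 of 14 in Lep2 (0.0288%). The limma fit differed from this, with 8 of 28 ATAC regions past its adjusted threshold and 9.8% of all. Why the 2 analyses differ was not tested. Between treatments, the authors' deposited table had 0 of 81 H3K27ac and 0 of 29 ATAC regions below 0.05 in every comparison among the Fast, Lep2 and Lep24 groups.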

How the data were processed

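H3K27ac ChIP-seq and ATAC-seq were measured in sorted hypothalamic nuclei, and 2 deposited tables give 1 value per region and library. The values are the authors' normalized signal per merged region, to 1 decimal; how they were normalized no source used here says, and reads could not be recovered, so depth is unknown and gives no interval. Per the submitters' processing notes the build was mm9 and the tools included Bowtie2 2.2.6, MACS2 and DESeq2 1.16.1. The deposited tables also hold the authors' log2 fold changes and the authors' p-values and FDR, which were copied only where named. The RNA-seq (23) and input (20) samples are not analysed here.

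The windows, genes, lists and contrasts were chosen with earlier results of these data known. Positions are 1-based. log2(signal + 1) was tested with limma 3.58.1 (R 4.3.3, trend) over regions above the lowest 10% of mean signal, with the means of 8 groups (8 residual degrees of freedom) and Benjamini-Hochberg adjustment over all tested regions. The filter dropped 5 H3K27ac members and 1 ATAC member. Regions named were, per gene and assay, the 3 with the highest mean signal, those with the largest positive and negative difference between fractions, and that with the smallest p between treatments. The fit was checked on simulated data. The fits were repeated with a replicate block, after quantile normalization, without the filter, with a pseudocount of 0.1 or 5, with only the groups compared, the set of 6 libraries as a term or left out, and each library left out.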

Additional observations from a re-analysis of the deposited data

Results flagged for a closer look

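The GFP-positive Lep2 replicate 1 H3K27ac library was the highest of the 8 GFP-positive libraries by a wide gap at Nfia and Nfib. Its sum was 2515 at Nfia, where the others had 1375 to 1870.3, and 1366 at Nfib, where the others had 821 to 1052. Within the Nfia window it had 268.7 at chr4:97447554-97465777, against 56.6 to 140.8, and within the Nfib window 313.1 at chr4:82174942-82189417, against 58.5 to 147.7. Of 72 groups of 8 libraries checked these 4 stood out. They are not independent, being 1 library in sums and in regions of those sums, and the 72 groups share libraries. Their number was therefore not set against a rate given by chance. The library is one of the set of 6, with 0.148% of its signal on the mitochondrial chromosome, and its part in the values was not tested.

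For Fast against Fed the sums lay in opposite directions in the fractions in 3 of 6 combinations of gene and assay, with no overlap between the 2 libraries on each side; all 18 contrasts of treatment, gene and assay were checked. For H3K27ac at Nfib the log2 ratio of means was -0.0892 for the GFP-positive and 0.39 for the GFP-negative fraction, and at Nfix -0.23 and 0.24. The GFP-positive sums at Nfib were barely apart, with 855.8 in Fast replicate 2 and 867.9 in Fed replicate 2. These 2 cases are not independent, since the H3K27ac sums of Nfib and Nfix ran in parallel (r = 0.98). How often other windows separate in this way was not examined. For ATAC at Nfib it was 0.47 and -0.16. These differences of sums were not tested, and no single region of the 3 genes had an adjusted p under 0.05 for the difference between the fractions (limma). Fed replicate 1 of both fractions is in the set of 6 H3K27ac libraries, and its part was not tested.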

How the results depend on the processing

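The H3K27ac sums kept their direction at all 3 genes under every alternative. The count of H3K27ac regions lower in GFP-positive nuclei (51) was 49 to 64 under the other settings and 42 to 50 with 1 library left out. The exception was 25 with only the 6 libraries, a setting chosen after seeing the data, where the log2 ratios of the sums were -0.69 at Nfia, -0.54 at Nfib and -0.55 at Nfix, against -1.15, -1.03 and -0.99 with all libraries. With only the other 10 libraries they were -1.44, -1.33 and -1.29. Leaving out 1 library gave -1.26 to -1.11, -1.13 to -0.9996 and -1.08 to -0.95. The ATAC count (8) was 4 to 9 with 1 library left out, and the ATAC ratios were -0.37 to -0.30 at Nfia, -0.84 to -0.71 at Nfib and -0.19 to -0.14 at Nfix. At Nfia the median over ATAC regions of the log2 ratio of fraction means (of signal + 1) was -0.13, against -0.34 for the sum and -0.20 for the median of the fitted differences. Between treatments the H3K27ac count was 0 throughout, and the ATAC count was 0 to 2 with 1 library left out, being 2 without Fast GFP-positive replicate 1 and 1 without Lep2 GFP-positive replicate 1. The library then left alone in its group is assumed to vary like the other groups.

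Deviations of same-numbered libraries from their group means correlated by 0.0097 to 0.50 for H3K27ac and 0.037 to 0.14 for ATAC, and no source used here says what a number marks. The pairs of Fed, Lep2 and Lep24 in H3K27ac (0.37 to 0.50) hold the set of 6 as their replicate 1, so the numbers were not taken to pair libraries by design. With the replicate block 54 H3K27ac and 9 ATAC regions were lower, and 60 and 9 with each pair as a block (chosen after seeing the data), and with the replicate block 0 passed between treatments. Within pairs the H3K27ac log2 ratios of the sums were -1.17, -1.04 and -1.02, and those of ATAC -0.33, -0.80 and -0.16.

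Signs turned in 5 named regions near 0. The H3K27ac difference at chr4:81948265-81948945 (0.07) was -0.51 with only the 6 libraries and -0.0739 to 0.21 with 1 library left out, and at chr8:87202868-87214681 (0.02) -0.0746 with only the other 10 libraries and -0.0691 to 0.11. With 1 library left out the ATAC difference was -0.32 to 0.12 at chr4:97417734-97418902, -0.0224 to 0.30 at chr4:97423953-97424977 and -0.23 to 0.0776 at chr8:87337926-87340456. ATAC chr8:87297780-87298189 no longer passed without the filter, with a pseudocount of 0.1, or when any of 9 libraries was left out. The cause of these shifts was not tested.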
